A study of Mus musculus with 118 samples.

Results

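Of the 18643 regions bound by RING1B in untreated mouse embryonic stem cells (ESCs), 2535 lay at a gene promoter, overlapped a SUZ12 peak and overlapped no PCGF2 peak. These regions were selected on the peak lists themselves: a RING1B peak was taken if it shared at least 1 bp with a SUZ12 peak, none with a PCGF2 peak, and at least 1 bp with the 2500 bp on either side of a transcription start site (TSS) of a curated RefSeq transcript. They made up 2535 of the 12064 RING1B peaks at promoters and 2535 of the 5559 promoter peaks with SUZ12. Another 3024 promoter peaks had both SUZ12 and PCGF2, 6495 had neither, and 10 had PCGF2 without SUZ12. A further 999 RING1B peaks with SUZ12 and without PCGF2 lay away from promoters and are not described.

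The peaks came from calibrated ChIP-seq (cChIP-seq), in which human HEK293T cells are mixed in before immunoprecipitation as an internal standard. The series holds 118 samples in 42 groups, and 12 untreated immunoprecipitated samples belong to the groups behind the lists used here, beside the Input samples that served as controls: 3 each for RING1B, SUZ12 and PCGF2 in PRC1CPM cells, and 3 for SUZ12 in PRC1CKO cells. Both lines are single clones of E14 strain ESCs with tamoxifen-inducible Cre at Rosa26 (Rosa26::ERT2-Cre). PRC1CPM (clone 41) carries Ring1a with I50A/D53K and floxed Ring1b alleles that switch from wild type to I53A/D56K (WT->I53A/D56K fl/fl). PRC1CKO (clone B9) is Ring1a-/- with Ring1b fl/fl. No cells had received tamoxifen, so RING1B was still wild type, while RING1A was already mutant or absent in the lines used. RING1B data from PRC1CKO cells, which also shaped the RING1B list, lie outside these samples and were not analysed here.

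RING1B is the E3 ligase of Polycomb repressive complex 1 (PRC1), which monoubiquitylates histone H2A. SUZ12 is a core subunit of PRC2, which methylates histone H3 at lysine 27. PCGF2 belongs to canonical PRC1, in which a CBX protein can read the PRC2 mark, whereas variant PRC1 complexes carry RYBP or YAF2 in its place. Variant complexes can form with any PCGF protein, PCGF2 included, so PCGF2 does not mark canonical PRC1 alone. In ESCs Polycomb complexes gather at CpG islands, and developmental regulators such as the Hox genes are their classical targets.

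An overlap with a deposited peak is a call, and the calling rules differed between factors. The authors required a PCGF2 peak in every replicate, whereas RING1B and SUZ12 peaks were called on merged replicates and kept if seen in both lines. The absence of a PCGF2 peak is therefore not a measured absence of PCGF2, and how far this rule set the membership of the class was not tested. The lists hold positions only, with no height, replicate or read depth. No p-value is given, since regions are not replicates and the class was defined by these same peaks. Medians are given with quartiles over peaks. Intervals marked 95% are Wilson intervals for shares and order-statistic intervals for medians. For a difference between medians the interval is approximate, made by combining the intervals of the medians compared. All of these intervals cover counting error only.

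To show the DNA of these promoters, those of 4 members are printed with 1 promoter from each comparison class. For each, 250 bases before and 50 bases from the TSS are shown 5′ to 3′ on the gene's strand, from RefSeq on GRCm38.p6, with every CpG in capitals. Gse1 (chr8:120535607-120535906, plus strand) had the widest RING1B peak of the class, at 13152 bp. Anapc11 (chr11:120598282-120598581, plus strand) and 1700016B01Rik (chr5:112155977-112156276, plus strand) were the members with the highest and the lowest CpG content in 1 kb around the TSS. F2r (chr13:95618417-95618716, minus strand) was a member near the middle, somewhat above the class median. Kcnk10 (chr12:98575078-98575377, minus strand) stood near the median of peaks with all 3 factors, and Sp4 (chr12:118301391-118301690, minus strand) near the median of peaks with neither SUZ12 nor PCGF2.
Gse1 promoter: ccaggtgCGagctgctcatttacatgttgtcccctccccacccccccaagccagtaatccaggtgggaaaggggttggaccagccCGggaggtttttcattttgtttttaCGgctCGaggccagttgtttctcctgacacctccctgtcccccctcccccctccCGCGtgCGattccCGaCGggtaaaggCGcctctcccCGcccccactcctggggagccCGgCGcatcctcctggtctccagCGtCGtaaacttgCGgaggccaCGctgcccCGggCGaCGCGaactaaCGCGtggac
Anapc11 promoter: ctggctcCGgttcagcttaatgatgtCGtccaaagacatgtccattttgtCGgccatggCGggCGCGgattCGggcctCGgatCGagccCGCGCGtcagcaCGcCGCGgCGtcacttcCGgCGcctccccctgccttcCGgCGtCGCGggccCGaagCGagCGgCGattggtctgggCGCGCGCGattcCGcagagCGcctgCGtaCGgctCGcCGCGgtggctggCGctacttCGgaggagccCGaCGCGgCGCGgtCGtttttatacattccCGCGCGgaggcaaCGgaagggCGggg
F2r promoter: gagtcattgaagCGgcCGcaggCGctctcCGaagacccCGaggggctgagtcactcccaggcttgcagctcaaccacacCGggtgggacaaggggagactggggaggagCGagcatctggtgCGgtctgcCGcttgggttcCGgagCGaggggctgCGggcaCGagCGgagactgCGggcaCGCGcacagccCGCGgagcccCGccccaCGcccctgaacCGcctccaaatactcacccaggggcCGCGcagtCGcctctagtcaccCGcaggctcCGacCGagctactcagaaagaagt
1700016B01Rik promoter: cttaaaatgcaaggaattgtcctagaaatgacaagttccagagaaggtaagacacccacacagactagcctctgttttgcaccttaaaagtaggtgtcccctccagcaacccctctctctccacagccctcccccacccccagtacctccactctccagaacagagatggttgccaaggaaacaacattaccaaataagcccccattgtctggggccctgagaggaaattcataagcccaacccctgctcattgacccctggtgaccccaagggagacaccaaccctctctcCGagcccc
Kcnk10 promoter: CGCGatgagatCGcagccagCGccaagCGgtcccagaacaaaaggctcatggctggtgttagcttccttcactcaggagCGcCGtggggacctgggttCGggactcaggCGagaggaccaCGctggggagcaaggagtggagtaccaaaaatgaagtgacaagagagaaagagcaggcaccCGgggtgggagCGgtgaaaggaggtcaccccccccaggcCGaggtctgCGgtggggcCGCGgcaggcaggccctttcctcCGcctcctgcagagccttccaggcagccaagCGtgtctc
Sp4 promoter: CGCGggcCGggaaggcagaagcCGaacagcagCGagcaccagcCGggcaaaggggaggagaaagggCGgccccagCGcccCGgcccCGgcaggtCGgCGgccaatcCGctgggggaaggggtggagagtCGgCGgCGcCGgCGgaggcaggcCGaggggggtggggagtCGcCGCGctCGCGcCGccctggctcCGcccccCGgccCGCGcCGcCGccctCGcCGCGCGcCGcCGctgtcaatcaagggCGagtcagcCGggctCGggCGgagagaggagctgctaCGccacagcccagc

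The printed windows held 50 CpGs at Anapc11, which encodes a subunit of the anaphase-promoting complex, 28 at F2r, which encodes the thrombin receptor, 23 at Gse1 and 1 at 1700016B01Rik. CpG content is given as the observed/expected ratio, in which the number of CpGs is divided by the number that the C and G content alone would give. In 1 kb around the TSS this ratio was 1.15 at Anapc11, 0.730 at F2r and 0.0470 at 1700016B01Rik, against a class median of 0.7149. The 1700016B01Rik TSS and its whole printed window lay outside its RING1B peak. Kcnk10, a potassium channel gene, had 18 CpGs in its window and a ratio of 0.732 in 1 kb. Sp4, a zinc finger transcription factor gene, had 42 and 0.740, and its TSS too lay outside its RING1B peak. SUZ12 peaks covered 13.9% of the RING1B peak at Anapc11, 25.3% at Gse1 and 100% at F2r. Of the 2535 members, 1926 had a TSS matched to a RefSeq promoter sequence. The CpG and motif values below were not limited to these and cover all 2535 members.

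The RING1B peaks of the class were of intermediate width. Their median width was 1932 bp (quartiles 1355 and 2689 bp, n = 2535, 95% interval 1881 to 1974 bp), against 4645 bp at promoter peaks with all 3 factors and 1176 bp at those with neither. On all 19 autosomes the median was below that of the first and above that of the second. The share of promoter SUZ12 sites that lacked PCGF2 fell with RING1B width, from 96.15% of 286 peaks under 1 kb to 60.14% of 1159 peaks of 2 to 3 kb and 3.041% of 559 peaks of 8 kb or more. Only 17 members reached 8 kb. Width and overlap come from the same peaks that chose the class, so these shares only describe how it is made up.

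**Figure D1:**
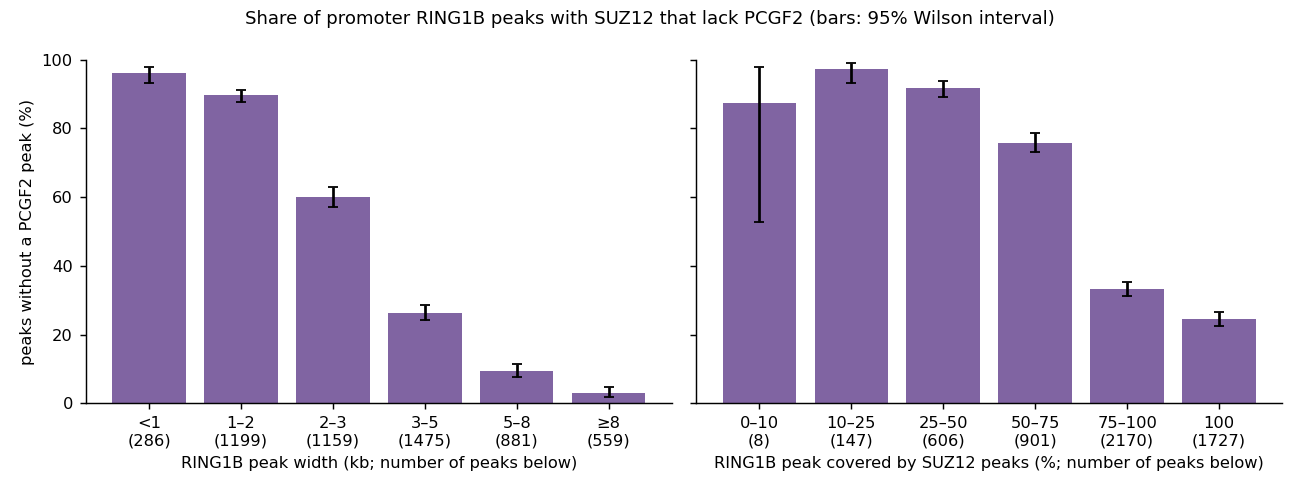
Share of promoter RING1B peaks with SUZ12 that lack a PCGF2 peak (%, y axis) by RING1B width in kb (left) and by the percentage of the RING1B peak under SUZ12 peaks (right), with 95% Wilson intervals and the number of peaks under each bar. The share fell from 96.15% under 1 kb to 3.041% at 8 kb or more, and from 97.28% at 10 to 25% coverage to 24.44% at full coverage.

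The widest members had a smaller share of their width under SUZ12 than the class as a whole. In bp they had more, with 1611 to 8247 bp of SUZ12 in the 10 widest peaks against a class median of 1203 bp. The 13152 bp peak at Gse1, a cofactor of histone deacetylase and demethylase complexes, also held the TSSs of 1700016A09Rik and Mir7687 and was 25.3% covered by SUZ12. Gadd45b, a stress-induced gene, followed with 12780 bp and 45.6%, and Ltbp4, which encodes a latent TGF-beta binding protein, with 12150 bp and 39.1%. Dnase2a and Gm38426 shared a peak of 11986 bp (24.0% covered). A peak of 11696 bp held 4 TSSs, of the splicing factor gene U2af2 with Zfp580, Ccdc106 and Gm15510, and was 70.5% covered. Next came Ano8 with Gtpbp3 (10303 bp, 48.2%), Repin1 with Zfp775 (10036 bp, 62.2%), the cytokine signalling inhibitor gene Socs3 (9939 bp, 16.2%), Ctdsp1 with Mir26b (9715 bp, 28.7%), and Agap3, Fastk and Tmub1 in a peak of 9278 bp (25.5%). All but 2 of these 10 peaks were under 50% covered, whereas the median coverage of the class was 70.82%. TSSs of at least 2 genes lay inside 311 members (12.27%).

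SUZ12 covered less of the RING1B peak here than where PCGF2 was present. The median covered share was 70.82% (quartiles 47.16 and 94.06%, 95% interval 69.09 to 72.36%), against 99.14% with all 3 factors, and was lower on all 19 autosomes. SUZ12 peaks enclosed 422 of the 2535 members entirely (16.65%), compared with 1305 of 3024 (43.15%). Of promoter SUZ12 sites that were 25 to 50% covered, 91.75% lacked PCGF2 (n = 606). Of those covered throughout, 24.44% did (n = 1727). For 2447 members with a one-to-one pairing of a RING1B and a SUZ12 peak, the SUZ12 peak had a median width of 1491 bp, next to 1912 bp for RING1B, and was the wider of the pair in 33.1%.

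**Figure D2:**
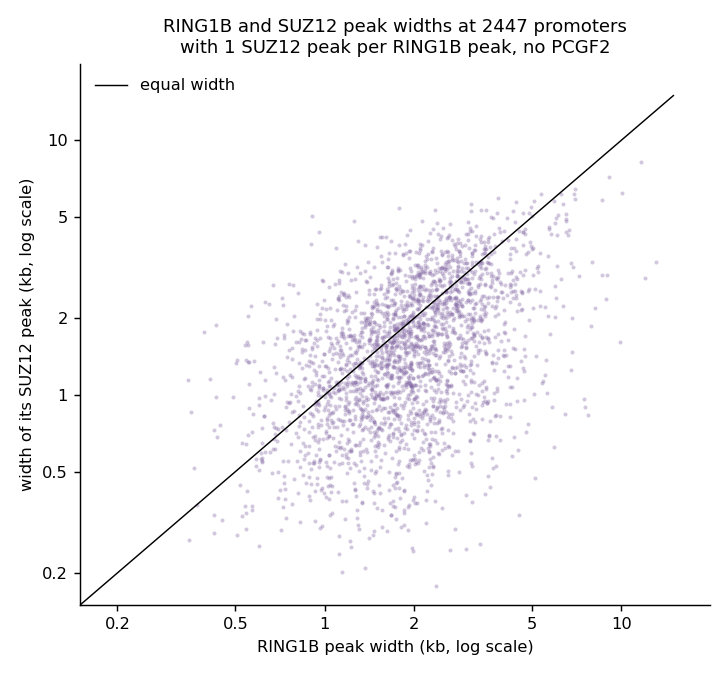
Width of the SUZ12 peak (kb, log scale) against width of the RING1B peak (kb, log scale) for the 2447 members with a one-to-one pairing, with a line at equal width. Points spread on both sides of the line, with SUZ12 wider in 33.1% of pairs.

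SUZ12 was displaced along the direction of transcription. In the one-to-one pairs, the SUZ12 peak lay inside the RING1B peak in 1051 (43.0%), reached past it only downstream in 717 (29.3%), only upstream in 275 (11.2%) and on both sides in 404 (16.5%). The upstream edge of SUZ12 fell short of that of RING1B, with a median position of -226 bp relative to the RING1B edge, and the downstream edge nearly met it (-33 bp). At the TSS itself, 93.6% of members had a RING1B peak and 58.9% a SUZ12 peak. SUZ12 rose to 73.1% at 100 bp and 81.7% at 400 bp downstream, while 100 bp upstream it was 51.7%. At 1000 bp downstream RING1B and SUZ12 were near each other, at 59.7% and 56.1%, and at 1000 bp upstream they were 35.2% and 24.6%. With all 3 factors, SUZ12 was present over 94.5% of TSSs and RING1B over 98.2%.

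**Figure D3:**
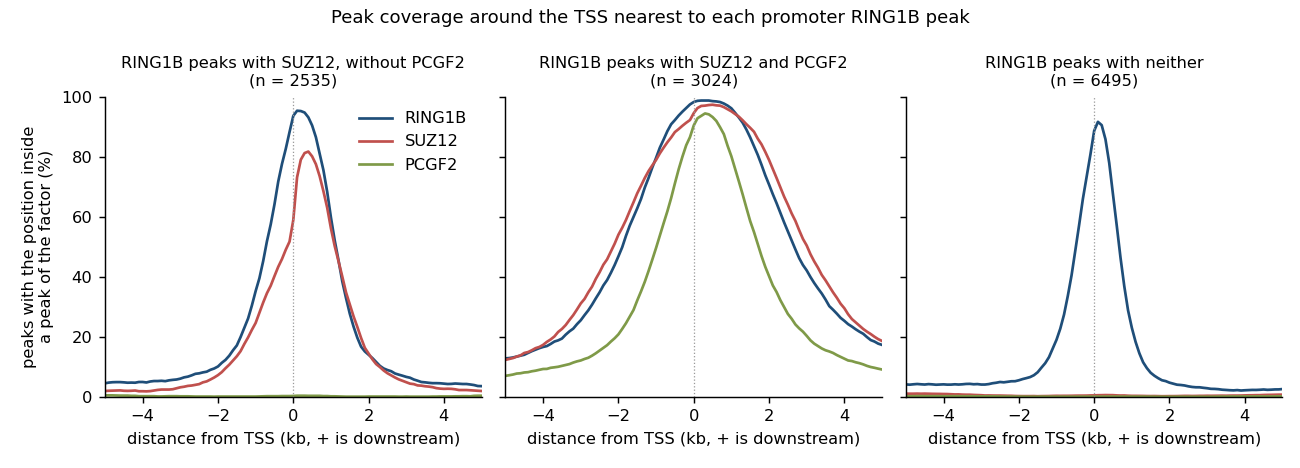
Percentage of promoter RING1B peaks (y axis) whose surroundings lie inside a peak of RING1B, SUZ12 or PCGF2 at each distance from the TSS nearest to the peak midpoint (x axis, kb, positive downstream), for the 2535 peaks with SUZ12 and without PCGF2 (left), the 3024 with both (middle) and the 6495 with neither (right). On the left, SUZ12 climbs from 51.7% at 100 bp upstream to 81.7% at 400 bp downstream while RING1B is already at 93.6% at the TSS.

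The members could thus be divided by where SUZ12 lay, a division made after the profile was seen. Of the 2347 members with the TSS inside the RING1B peak, 1447 (61.7%, 95% interval 59.7 to 63.6%) had SUZ12 over the TSS, 729 (31.1%) only downstream, 138 (5.88%) only upstream and 33 (1.41%) on both sides but not over it. With all 3 factors, 2842 of 2961 (96.0%) had SUZ12 over the TSS. Where SUZ12 was only downstream, its peak began a median of 109 bp past the TSS (quartiles 53 and 246 bp). The RING1B peak was a median of 2004 bp wide with SUZ12 over the TSS and 1785 bp with SUZ12 downstream, narrower on 17 of 19 autosomes. SUZ12 covered 87.0% and 48.2% of the peak.

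Promoters with SUZ12 only downstream were richer in CpGs. Their median CpG observed/expected in 1 kb around the TSS was 0.790 (quartiles 0.677 and 0.892, n = 729), against 0.680 (0.545 and 0.820, n = 1447) with SUZ12 over the TSS, and it was higher on 18 of 19 autosomes. They held a median of 79 CpGs against 62, higher on 19 of 19. The CpG-rich stretch at the TSS, the longest run of 200 bp windows with a ratio of at least 0.6 and a GC content of at least 50%, measured 900 bp against 650 bp, longer on 19 of 19. By the same thresholds over 1 kb, 85.3% (95% interval 82.6 to 87.7%) and 64.3% (61.8 to 66.8%) were CpG-rich. Genes starting in the opposite direction within 1 kb upstream, which make a promoter divergent, were found at 9.88% and 5.39%, and the first was higher on 15 of 19 autosomes. With SUZ12 only upstream (n = 138) the ratio was 0.769 (95% interval 0.712 to 0.807), the stretch 800 bp and the divergent share 11.6%. The higher ratio, longer stretch and more frequent divergence were thus not particular to the downstream position. The CpG-rich share with SUZ12 only upstream was 70.3% (62.2 to 77.3%), nearer to that with SUZ12 over the TSS.

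**Figure D4:**
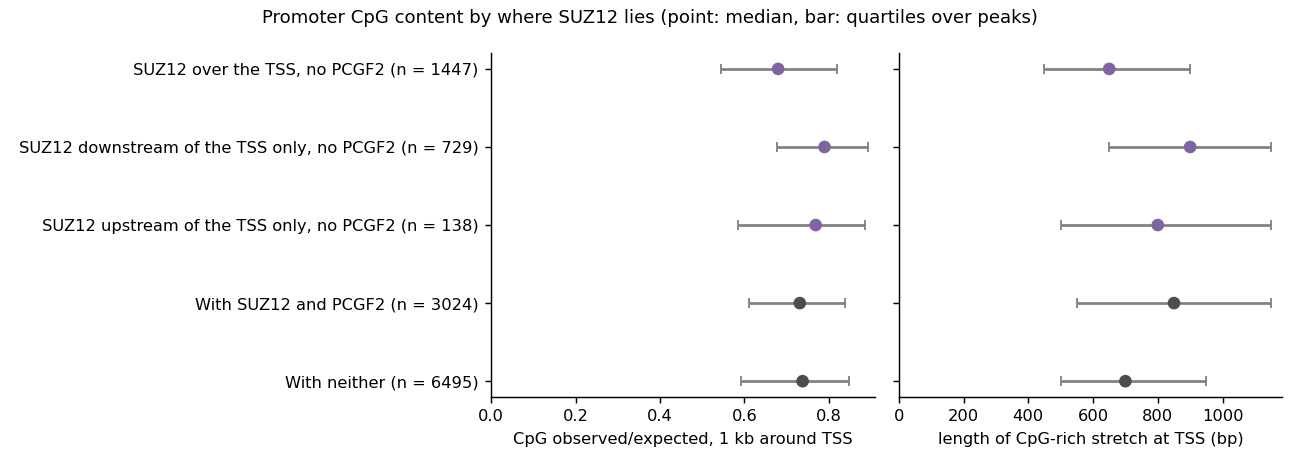
CpG observed/expected in 1 kb around the TSS (left) and length in bp of the CpG-rich stretch at the TSS (right) for members with SUZ12 over, only downstream or only upstream of the TSS, and for promoter peaks with both SUZ12 and PCGF2 or neither. Points are medians and bars quartiles over peaks, and the ratio was 0.790 with SUZ12 downstream against 0.680 with SUZ12 over the TSS.

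Over all members, the median CpG ratio was 0.7149 (quartiles 0.5581 and 0.8480, 95% interval 0.7046 to 0.7275), compared with 0.7314 with all 3 factors and 0.7380 with neither. It was below the first on 10 of 19 autosomes and below the second on 15 of 19. The CpG-rich stretch had a median of 700 bp, against 850 bp with all 3 (shorter on 18 of 19 autosomes) and 700 bp with neither. The number of CpGs in 1 kb was 66 in members, 71 with all 3 (lower on 15 of 19) and 63 with neither. The GC content of 61.70% was above the 59.00% of peaks with neither on 19 of 19 autosomes and below the 63.05% of peaks with all 3 on 17 of 19. A CpG-rich promoter was found at 67.97% of members (95% interval 66.13 to 69.76%), 75.63% with all 3 and 72.13% with neither. The medians also differed with peak width. Among peaks under 1 kb, the ratio was 0.5946 in 275 members and 0.6930 in 2550 peaks with neither, and at 1 to 2 kb it was 0.7039 in 1075 members, 0.6424 in peaks with all 3 and 0.7701 in 2848 with neither. Among peaks of 2 to 3 kb, the ratio was 0.7718 in 697 members, 0.6966 in 462 peaks with all 3 and 0.7756 in 793 with neither. At 3 to 5 kb the classes were close, with 0.7344 in 388 members, 0.7453 in 1087 peaks with all 3 and 0.7179 in 263 with neither. At 5 to 8 kb the ratio was 0.6578 in 83 members and 0.7573 in 798 peaks with all 3.

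Short motifs of common promoter factors were looked for in the same 300 bp windows on both strands. The ETS core CCGGAAG was in 9.27% of member promoters (95% interval 8.20 to 10.5%), 3.90% with all 3 factors, 20.2% with neither and 10.4% of all 31603 curated TSSs. The NRF1 core GCATGCGC was in 3.98%, 1.92%, 6.87% and 3.16%, and the YY1 core AAGATGGC in 1.54%, 0.794%, 4.91% and 2.85% of the same sets. The E-box CACGTG was in 9.66%, 7.64%, 12.6% and 7.67%. For these 4 motifs the members lay between the other classes. Among all CpG-rich TSSs the same motifs were in 18.9% (ETS), 5.72% (NRF1), 4.64% (YY1) and 11.0% (E-box), above the members for each. For NRF1 and the E-box the members were above all TSSs. Only 67.97% of members had a CpG-rich promoter, so CpG-rich TSSs are not a matched background for them, and none was made. The CRE TGACGTCA was in 2.37% of members, 2.08% with all 3, 3.53% with neither and 2.21% of all TSSs, and the CCAAT box in 31.9%, 30.4%, 39.2% and 37.3%. The GC box GGGCGG was in 72.0% of members, above both 68.6% with all 3 and 66.1% with neither, and in 43.2% of all TSSs. TATAAA was in 5.48% of members, below both 8.13% and 6.10%, and in 12.3% of all TSSs. Among CpG-rich TSSs the CRE was in 3.55%, the CCAAT box in 36.1%, the GC box in 74.1% and TATAAA in 5.37%. With SUZ12 only downstream of the TSS, the CCAAT box was in 39.2% (95% interval 35.8 to 42.8%) and the GC box in 81.6% (78.6 to 84.3%), compared with 27.6% (25.3 to 29.9%) and 70.6% (68.2 to 72.9%) with SUZ12 over it. With SUZ12 only upstream they were in 39.9% (32.1 to 48.2%) and 75.4% (67.6 to 81.8%).

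The members lay at the promoters of 2923 genes, which is 11.2% of 26180 annotated genes, and 2032 of them were among the 11515 genes with a CpG-rich promoter (17.6%). Peaks with all 3 factors lay at 3621 genes (13.8%), and 72 genes had a peak of each kind. Among the genes named by family below, those 72 include Nkx6-3, Esrrg, Elf2, Tnfrsf25, Dll3, Abca2, Pde4a, Pde8b, Krt18, Kdm2b and Wnt5b. Of the 2923 genes, 2644 were protein coding, 209 lncRNA and 55 miRNA genes. The genes at members were of intermediate length, with a median of 28143 bp against 41192 bp with all 3 factors and 20384 bp with neither. To describe these genes, 45 lists of gene families were counted, and each count is to be read against the 11.2% of all genes. Where a list's share among its genes with a CpG-rich promoter falls on the other side of 17.6%, or at it, that share is given too. Because the classes nearly exclude each other at a gene, a list that is largely taken up by peaks with all 3 factors leaves few genes for the members.

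Hox, other homeobox, Sox, Gata and T-box genes were rarely in the class. None of the 47 Hox and ParaHox genes had a member, and all 47 had a peak with all 3 factors. Members lay at 6 of 150 other homeobox genes (4.00%), of which 128 had a peak with all 3, and at 1 of 42 Sox, Gata and T-box genes (Tbx22). The 6 homeobox genes were Six4 (4665 bp RING1B peak), Cux2, Pbx2, Nkx6-3, Meox1 and Meis3. Forkhead genes had 5 of 44 (11.4%): Foxn2, Foxn4, Foxj2, Foxk1 and Foxa3. Basic helix-loop-helix genes had 11 of 86 (12.8%), among them Id1 (6490 bp, 79.1% covered by SUZ12), an inhibitor of other helix-loop-helix factors, and Tcf15, Mesp2, Bhlhe40, Ascl4, Arnt2, Atoh7, Mxd4, Tal2, Scx and Ahr. Both lists were close to the share of all genes, and among their genes with a CpG-rich promoter they were at 11.8% and 11.3%, under 17.6%. In Zfp genes, which encode zinc finger proteins, the order of the classes was the other way, with members at 41 of 399 (10.3%) and peaks with all 3 factors at 27 (6.77%). The widest were at Zfp580, Zfp775, Zfp651, Zfp768, Zfp664 and Zfp777.

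Other transcription factor families had shares of 10.0 to 23.1%. Nuclear receptor genes had 7 of 44 (15.9%): Nr2f6 (9118 bp), the 3 retinoic acid receptor genes Rara, Rarb and Rarg, the vitamin D receptor gene Vdr, Nr1h2 and Esrrg. SUZ12 covered 23.2% of the peak at Rara, 47.1% at Rarg and 97.9% at Rarb, so coverage ranged widely even among these paralogues. Ets family genes had 6 of 26 (23.1%), at Etv5, Etv6, Etv2, Elf2, Etv3 and Ets2. AP-1 and ATF genes had 6 of 37 (16.2%), at Jund (6098 bp, 26.8% covered), Junb (5748 bp, 30.1%), Mafk, Creb3l1, Cebpe and Creb1, but 4 of 30 (13.3%) among those with a CpG-rich promoter. Klf, Egr and Sp genes had 3 of 30 (10.0%), at Egr1, Klf2 and Klf15.

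Among secreted ligands, Wnt genes were nearly all elsewhere, with a member at 1 of 19 (Wnt5b, which also had a peak with all 3 factors) and a peak with all 3 factors at 17. Fgf genes had 4 of 22 (18.2%), at Fgf4, Fgf17, Fgf21 and Fgf20, but 1 of 11 (9.09%) among those with a CpG-rich promoter. TGF-beta superfamily genes had 3 of 33, at Amh, Gdf1 and Tgfb3. Semaphorin, ephrin, netrin and Slit genes, which guide axons, had 8 of 39 (20.5%): Sema6b (6245 bp), Efna1, Efnb3, Sema4g, Sema6c, Sema3e, Sema4d and Sema4f. Cytokine and chemokine genes had 11 of 86 (12.8%) and peaks with all 3 at 8. They were Il17b, Cxcl16, Lif, Il17d, Il11, Il13, Cx3cl1, Tnf, Il7, Tnfsf13b and Cxcl5. At Lif, which encodes the cytokine that is added to ESC medium to hold self-renewal, a 2946 bp RING1B peak was 94.9% covered. At Tnf, Tnfsf13b, Cx3cl1 and Cxcl5 the RING1B peak lay wholly under SUZ12.

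Members lay at 67 of the 352 genes in the receptor lists (19.0%), called receptor genes here. These lists include the Notch and hedgehog pathway genes, some of which do not encode receptors. Interleukin and Tnf receptor genes had 20 of 71 (28.2%), against 11 with all 3 factors, and 7 of the 18 with a CpG-rich promoter (38.9%). The widest were at Tnfrsf12a (6033 bp, shared with Cldn6 and Cldn9), Tnfrsf25, Il27ra, Il12rb1, Il17rc and Il4ra. Frizzled, Fgf, Bmp and activin receptor genes had 8 of 32 (25.0%), at Fzd5 (7213 bp), Fgfrl1, Lrp5, Bmpr1a, Acvr2b, Acvr1, Fgfr4 and Acvr1b, while 22 had a peak with all 3. Eph, plexin, neuropilin, Robo and Unc5 genes had 6 of 34 (17.6%), at Ephb4, Plxna1, Robo1, Plxnb1, Ephb3 and Plxnb2. Notch and hedgehog pathway genes had 5 of 23 (21.7%), at Jag2, Gli1, Rfng, Dll3 and Notch2. Adhesion and orphan G protein coupled receptor genes had 15 of 103 (14.6%), the widest at Gpr84, Gpr62, Gpr180, Gpr153, Gpr157 and Gpr3. Adrenergic, dopamine, serotonin and muscarinic receptor genes had 5 of 37 (13.5%), including Chrm1 and Drd2, and 11.8% of those with a CpG-rich promoter. Glutamate, GABA and glycine receptor genes had 8 of 52 (15.4%), including Grin1, Gria4, Grin2d and Gabrd, and 16.0% of those with a CpG-rich promoter. For this last list the median coverage by SUZ12 was 100%.

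Integrin genes, which encode the cell surface receptors for extracellular matrix, had the highest share of the 45 lists: 10 of 26 (38.5%), or 6 of the 10 with a CpG-rich promoter, against 5 with all 3 factors. They were Itgb8, Itga7, Itgb5, Itgb4, Itga5, Itga1, Itga6, Itga2, Itga9 and Itga8, with RING1B peaks of 1371 to 2877 bp. SUZ12 covered 83.7 to 100% of 8 of these peaks, 28.7% at Itga5 and 28.2% at Itga6. Collagen and laminin genes had 12 of 55 (21.8%), including Lama5 (5546 bp), Col1a2, Col9a2, Col23a1, Col24a1, Lamc3, Col11a1, Col9a3, Lama4, Col16a1, and Col4a3 with Col4a4, which share a divergent promoter and a peak of 1601 bp. Among those with a CpG-rich promoter the share was 17.6% (3 of 17), the same as over all CpG-rich genes. Cadherin and protocadherin genes had 16 of 99 (16.2%), the widest over Pcdhb17 and Pcdhb18 (7007 bp), then Cdh24, Cdh7, Pcdhb20 and Pcdhb2, but only 2 of the 25 with a CpG-rich promoter (8.00%). Adamts and matrix metalloproteinase genes had 3 of 47, at Adamts14, Adamts16 and Mmp2. Keratin and claudin genes had 6 of 77, at Cldn6, Cldn9, Krt87, Krt7, Krt19 and Krt18.

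Members lay at 98 of 604 channel and transporter genes (16.2%). Solute carrier genes had 66 of 397 (16.6%), the widest at Slc50a1, Slc4a2, Slc25a23, Slc35g3, Slc38a1 and Slc6a7. ABC transporter genes had 10 of 50 (20.0%) and 5 with all 3 factors. They were Abca1, Abca2, Abcc4, Abcg1, Abca14, Abcc3, Abcb10, Abcb9, and Abca3 with Abca17, which shared a peak. Potassium channel genes had 15 of 92 (16.3%) and 55 with all 3, with members at Kcnh2, Kcnh4, Kcng4, Kcne3 and Kcnh8 among others. Sodium and calcium channel genes had 7 of 65 (10.8%), at Scn8a, Trpm2, Trpm7, Cacnb1, Scnn1a, Trpm6 and Scnn1b.

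Intracellular signalling genes had the highest share of any role, with members at 80 of 336 genes (23.8%), compared with 86 of 905 transcription factor genes (9.50%). The roles were set by whole lists, so this one also holds some transcription factor genes, such as Tcf7, and genes of secreted proteins, such as Sfrp4. Rab and Ras family genes had 33 of 136 (24.3%), the same number as had a peak with all 3 factors. The widest were at Rasgrp2 (8638 bp), Rnd2, Rab3a, Rasa2, Rnd1 and Rap1b. Matched by symbol, this list also holds genes of Ras regulators, such as Rasgrp2 and Rasa2. The list of Socs, Smad and Tle genes also held unrelated genes such as Tcf7, Tcf7l1, Znrf3, Sfrp4 and Dkk3. It had 10 of 41 (24.4%), at Socs3, Tle2, Tcf7, Tcf7l1, Znrf3, Socs5, Smad4, Sfrp4, Smad1 and Dkk3. Dusp, Spry, Spred and Rgs genes, many of them feedback inhibitors of growth factor signalling, had 9 of 51 (17.6%), at Rgs11, Dusp6, Spry4, Spry1, Rgs19, Dusp3, Rgs12, Rgs8 and Rgs9. Cyclic nucleotide genes had 10 of 50 (20.0%), at Pde9a, Pde12, Adcy3, Pde4a, Pde11a, Gucy2g, Prkar1b, Pde8b, Gucy1a1 and Pde1c. Cdk inhibitor and cyclin genes had 4 of 32 (12.5%), at Cdkn1b (6353 bp), Cdkn1a, Ccnj and Ccne2, and 13.8% of those with a CpG-rich promoter.

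**Figure D5:**
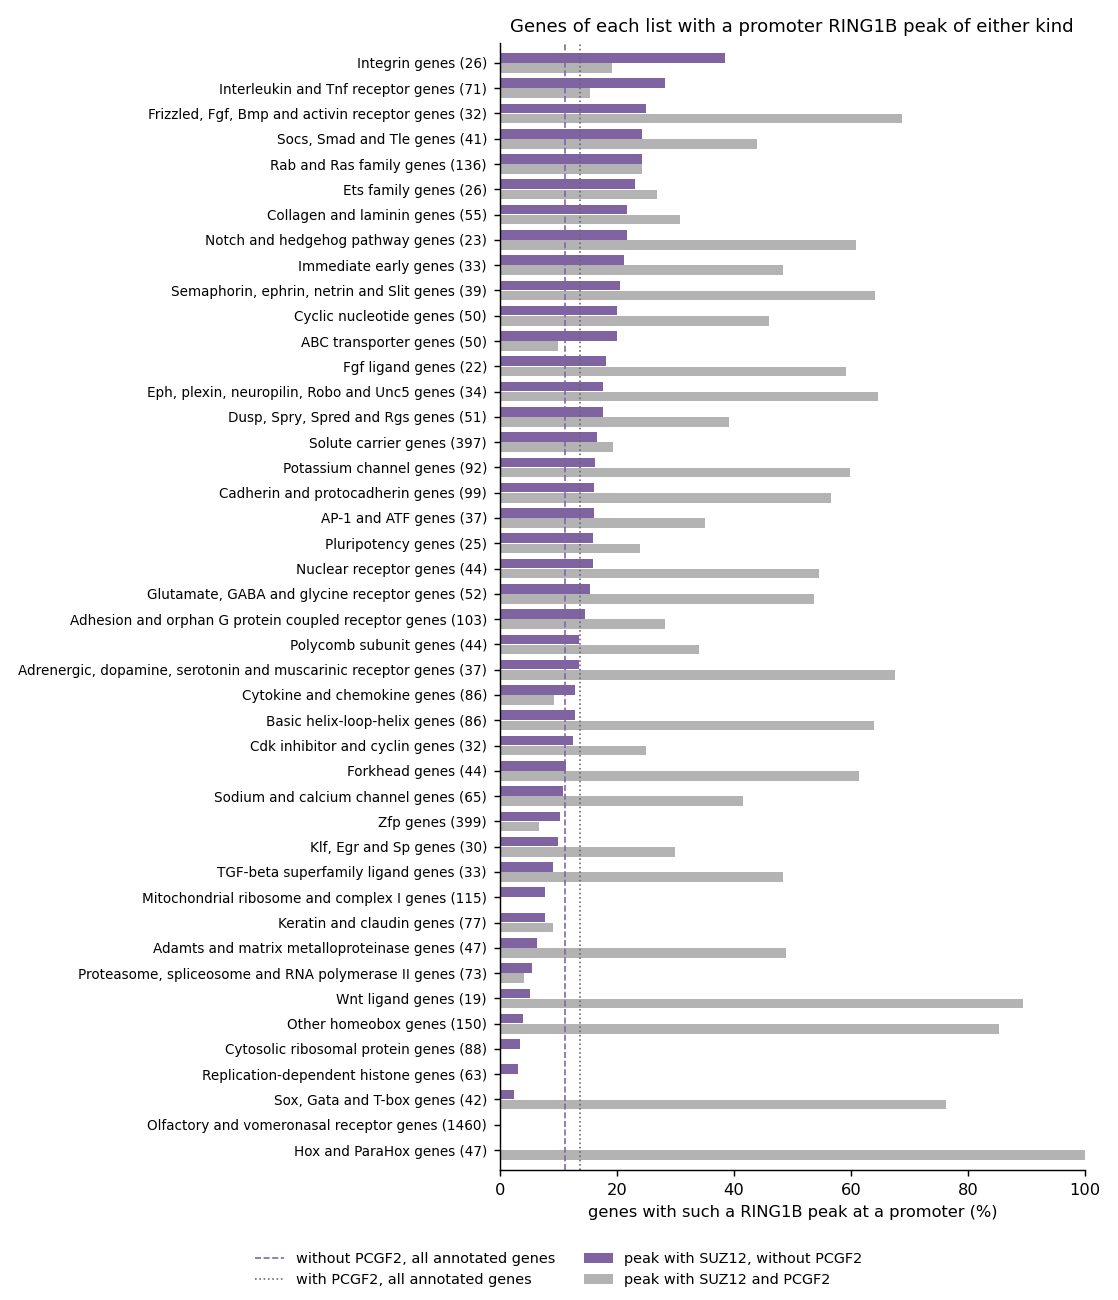
Percentage of the genes of each list shown (number of genes in parentheses) with a promoter RING1B peak that has SUZ12 without PCGF2 (purple) or has both (grey), with dashed and dotted lines at the shares over all annotated genes, 11.2% and 13.8%. Integrin genes stand highest for the first at 38.5%, while all 47 Hox and ParaHox genes have the second and none has the first.

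Polycomb subunit genes were near the background, with 6 of 44 (13.6%) and 6 of the 40 with a CpG-rich promoter (15.0%): Ring1, which encodes RING1A, Kdm2b, whose product recruits variant PRC1 to unmethylated CpGs, the PRC1 subunit genes Phc2, Scmh1 and Fbrsl1, and the PRC2 subunit gene Aebp2. At Ring1 a 2404 bp peak was 51.3% covered by SUZ12, and at Aebp2 a 5044 bp peak was 43.4% covered. The Ring1 gene is itself edited in the lines used, mutated in PRC1CPM and deleted in part in PRC1CKO. Its values therefore do not describe an unaltered gene. Kdm2b also had a peak with all 3 factors at another promoter. Pluripotency genes had 4 of 25 (16.0%), at Dppa3 (4882 bp), Fgf4 (3404 bp), Klf2 (3198 bp) and Utf1 (2765 bp), with SUZ12 over 30.4 to 40.5% of the peak. Immediate early genes had 7 of 33 (21.2%), at Gadd45b, Junb, Egr1 (3987 bp), Sgk1, Ier3, Arc and Ccn2, and SUZ12 covered 30.1 to 68.9% of those peaks.

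Housekeeping genes were below the share of all genes, but had members more often than peaks with all 3 factors. Members lay at 18 of 339 such genes (5.31%) and peaks with all 3 factors at 3 (0.885%). Cytosolic ribosomal protein genes had 3 of 88, at Rps15 (7960 bp), Rpl7 and Rpl36al. Mitochondrial ribosome and complex I genes had 9 of 115, at Mrpl34, Mrpl14, Ndufa13, Mrps24, Mrps6, Mrpl53, Mrps23, Mrps26 and Mrps5. Proteasome, spliceosome and RNA polymerase II genes had 4 of 73, at Polr2b, Snrpd2, Psma7 and Polr2l. Replication-dependent histone genes had 2 of 63, at H2ac1 and H2bc1, and olfactory and vomeronasal receptor genes 2 of 1460, at Olfr95 and Olfr1419. These 4 genes, like Tbx22 and Wnt5b, lie outside the naming rule and were named after their counts were seen.

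SUZ12 coverage differed between these groups of genes. With 1 peak per gene, the median was 70.5% over all genes with a member. It was 91.4% for ligand genes (27 peaks), 93.5% for matrix and adhesion genes (39 peaks) and 84.5% for receptor genes (67 peaks). For housekeeping genes it was 50.7% (17 peaks), for immediate early genes 45.6% (7 peaks), for Dusp, Spry, Spred and Rgs genes 38.4% (9 peaks) and for pluripotency genes 34.6% (4 peaks). Transcription factor (65.1%), channel and transporter (74.9%) and intracellular signalling genes (62.4%) lay nearer to 70.5%. The last of these include the Dusp, Spry, Spred and Rgs genes. Coverage is a share of RING1B width, which also differed. The median width was 2364 bp for housekeeping, 3741 bp for immediate early, 2639 bp for Dusp, Spry, Spred and Rgs, and 3301 bp for pluripotency genes. It was 2706 bp for ligand, 1812 bp for matrix and adhesion and 1915 bp for receptor genes, and 1940 bp over all. Among peaks that held their TSS, SUZ12 lay over it at 19 of 23 for ligand genes (82.6%), 72.6% for receptor genes, 66.7% for matrix and adhesion genes, 5 of 7 for immediate early genes (71.4%), 4 of 9 for Dusp, Spry, Spred and Rgs genes (44.4%), 7 of 17 for housekeeping genes (41.2%) and 1 of 4 for pluripotency genes (25.0%), compared with 61.5% over all genes with a member. Coverage and position thus did not go together in every list, as the immediate early genes show. Several of these lists hold few peaks, and the differences were not tested.

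The median distance from a member to the nearest PCGF2 peak was 155582 bp (quartiles 62079 and 338272 bp), 1640 members (64.69%) were more than 100 kb away, and 53 (2.091%) were within 5 kb. For promoter peaks with neither factor the median was 146172 bp and 62.12% were beyond 100 kb, and in both classes a lack of overlap with PCGF2 was part of the definition. In 12 members the SUZ12 peak reached on to a PCGF2 peak outside the RING1B peak. The nearest were at Krt18, 832 bp from PCGF2, and Niban3, 836 bp away. The promoter SUZ12 peaks with the least PCGF2 under RING1B were at Slc25a21 (209 bp) and Gm10499 (316 bp), just outside the class. The least SUZ12 among members was 25 bp at Lats2 and 138 bp at Traf1. Just outside, the RING1B peaks at Ncan and Tmem125 ended 89 and 108 bp from a SUZ12 peak. The farthest from a TSS were the members at Arrdc2 (2466 bp) and Selenom (2450 bp), and peaks 2559 bp from the TSS of Apc2 and 2560 bp from that of Grin2d were not counted as promoter peaks. Few peaks lay this near an edge: 1 member had under 100 bp of SUZ12, 3 had PCGF2 within 1 kb (Krt18, Niban3 and a peak over Gfy and Pth2, named after the count was seen), and 35 promoter peaks with neither factor had SUZ12 within 1 kb.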

How the data were processed

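Lists of peak positions in bp for RING1B, SUZ12 and PCGF2 were used as deposited by the authors. They aligned reads with Bowtie 2 to mm10 joined to hg19, used Sambamba to drop duplicates, and ran MACS2 in broad mode with Input as the control. RING1B peaks were filtered by the authors for loss of signal in tamoxifen-treated PRC1CKO cells, and blacklisted regions were dropped. The lists carry no depth, and read totals were not used here. Positions are counted from base 1 on mm10, which corresponds to GRCm38.p6. TSSs were the 31603 distinct starts of curated RefSeq transcripts of that assembly, and each peak was assigned the TSS nearest to its midpoint. Overlap needed 1 bp. The members and gene lists were chosen with earlier results of these data known. Lists were matched by symbol pattern, and some patterns were corrected after counts were seen, to follow renamed histone genes and to drop unrelated symbols. Genes were named by rule: the 10 widest peaks, those with most TSSs, those nearest each threshold, and up to 12 genes, or the 6 widest, per list with 3 or more. A few genes and 1 list are not reported here. No test was run. The code was tested on simulated data. The division by SUZ12 position and its alternatives were added after the data were seen. Software was pandas 2.3.3 and NumPy 2.4.6 under Python 3.11.15, with SciPy 1.17.1 for intervals and matplotlib 3.10.9 for figures.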

Additional observations from a re-analysis of the deposited data

How the results depend on the processing

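The numbers of peaks and genes stayed within 1.5 times the reported counts under the 10 alternatives tried for each. Requiring SUZ12 over at least 50% of the peak moved the median width to 1815 bp, the SUZ12 coverage to 84.52%, the CpG-rich share to 63.8%, and the difference in CpG observed/expected to -0.0475 against peaks with all 3 factors and -0.0588 against peaks with neither (reported: -0.0164 and -0.0230). The difference from peaks with all 3 factors was smaller, with 95% intervals on both sides of 0, with the TSS inside the peak (-0.00291, from -0.0175 to 0.0117), in 500 bp (-0.00315) and for peaks of at least 1 kb (-0.00432). Its interval also spanned 0 with no PCGF2 peak within 5 kb (-0.0132), with 1000 bp on either side of the TSS (-0.0112) and with curated mRNA transcripts only (-0.0136). With SUZ12 over the midpoint, the width was 1861 bp, the coverage 78.54% and the CpG-rich share 65.5%. The differences were then -0.0341 against peaks with all 3 factors and -0.0447 against peaks with neither. Under the 50% and midpoint requirements, promoter peaks without PCGF2 that failed them were counted among the peaks with neither. Those with PCGF2 left the class with all 3 factors. The comparison classes thus changed too, and their part in these shifts was not tested. With peaks of at least 1 kb, the width was 2059 bp, the coverage 68.86%, the CpG-rich share 70.6% and the difference from peaks with neither -0.0402. The CpG-rich share was 71.5% with the TSS inside the peak, 64.0% with predicted transcripts added, 75.6% in 500 bp, 51.0% over the whole peak, and 58.2% at thresholds of 0.65 and 55%. Over the whole peak in place of the promoter, the difference from peaks with all 3 factors turned to 0.116, and that from peaks with neither was -0.0976. Those windows differ in width between classes. Alternatives for the position of SUZ12 were added after the data were seen: counting any TSS inside the peak gave 64.1% with SUZ12 over a TSS, and requiring SUZ12 to start over 100 bp past the TSS raised the difference in CpG ratio from 0.110 to 0.137. No paired analysis was possible because each list pools its samples, and no replicate could be left out. Where no construction is named, the cause was not tested.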

Other observations

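The share of promoter SUZ12 sites that lacked PCGF2 ranged over the autosomes from 37.91% on chromosome 18 (69 of 182, 95% interval 31.18 to 45.14%) to 51.35% on chromosome 8 (152 of 296, 45.68 to 56.99%). On the X chromosome it was 30.39% (31 of 102, 22.31 to 39.90%). The next RING1B peak lay a median of 24.6 kb from a member. It had all 3 factors in 15.8% of cases, SUZ12 without PCGF2 in 20.5% and neither in 63.6%, against 19.0%, 19.0% and 61.9% of all RING1B peaks.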
